A study of Mus musculus with 12 samples.

Results

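The enzymes that carry tryptophan to kynurenine and on towards NAD were followed in mouse colon tumours as 10 genes: Tdo2, Ido1, Ido2, Afmid, Kyat1, Kyat3, Kmo, Kynu, Haao and Qprt. A probe set, the group of oligonucleotides on an Affymetrix array that reads a transcript, was taken where the array annotation gave it to 1 of these genes alone, under its present symbol or an older alias. This gave 20 probe sets out of the 45037 that were tested, for 10 of 18193 named genes. Tumours had been raised in the cecum of C57BL/6 mice from MC38, a mouse colon carcinoma line, and the RNA of whole tumours was measured, so cells of the host were read together with the tumour cells. Every group carried an inducible short hairpin against Tdo2 (ishTDO2), including the animals that were given no inducer. The 4 groups were APC-WT without doxycycline (Dox), APC-WT with Dox in the drinking water, APC-KO without Dox and APC-KO with Dox, with 3 arrays each. Tumours given Dox without a hairpin were not analysed here, so Dox itself and the hairpin cannot be told apart. The design text names cell lines where the sample labels name tumours, and neither says that arrays of a group came from separate animals, nor whether the APC-KO cells were 1 clone. The p-values therefore measure the spread between these samples only, and that spread may be technical. In RNA of whole tumours, fewer cells of a type and less RNA per cell cannot be told apart.

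In the pathway, the dioxygenases TDO2, IDO1 and IDO2 open the indole ring of tryptophan, and the formamidase AFMID releases kynurenine from the product. Kynurenine then takes different routes: aminotransferases such as KYAT1 and KYAT3 make kynurenic acid, while KMO, KYNU and HAAO in turn lead to quinolinic acid, which QPRT turns into a precursor of NAD. Kynurenine and kynurenic acid are ligands of the aryl hydrocarbon receptor, and IDO1 is known for its induction by interferon gamma and for restraining T cells in tumours.

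Levels are the deposited log2 values, and a difference of log2 values is written with the standard error (SE) of the limma fit over all 12 arrays. A difference passed where its p-value, adjusted by Benjamini-Hochberg over all 45037 probe sets, was under 0.05. The median probe set had a mean of 5.55, and this value serves below as a floor: it is a filter on level, background was not measured, and detection calls were not used. Only 4 of the 20 probe sets had a mean at or above it, 2 of Afmid and 1 each of Kyat3 and Haao. Levels are set against each other only within a probe set, since probe sets differ in how brightly they read their transcript. Array medians ran from 5.528 to 5.575 and arrays of a group correlated at 0.995 to 0.998. The label of a colon carcinoma was checked on 10 colon epithelial markers: Epcam, Krt8 and Cdh1 were at or above the floor, and the other 7, among them Krt20, Vil1 and Muc2, were under it.

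Of the members, Kyat3 was higher in APC-KO in both states of Dox. Kmo was higher only with Dox, under the floor on all arrays, and differed by -0.20 without Dox. Their promoters are shown as reference, since APC acts through beta-catenin and its DNA-binding partners of the TCF/LEF family. They are the 250 bases before the annotated start, from RefSeq on GRCm38.p6, each on the strand of its gene; Kyat3 lies at chr3:142700798-142701047 and Kmo at chr1:175631943-175632192, both on the plus strand. Capitals mark CTTTGA, the core of the TCF/LEF motif, searched on both strands.
Kyat3: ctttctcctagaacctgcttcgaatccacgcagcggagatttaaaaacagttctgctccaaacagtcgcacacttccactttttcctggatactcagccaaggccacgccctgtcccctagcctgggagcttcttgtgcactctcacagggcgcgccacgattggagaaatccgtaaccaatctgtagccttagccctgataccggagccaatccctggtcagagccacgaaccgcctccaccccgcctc
Kmo: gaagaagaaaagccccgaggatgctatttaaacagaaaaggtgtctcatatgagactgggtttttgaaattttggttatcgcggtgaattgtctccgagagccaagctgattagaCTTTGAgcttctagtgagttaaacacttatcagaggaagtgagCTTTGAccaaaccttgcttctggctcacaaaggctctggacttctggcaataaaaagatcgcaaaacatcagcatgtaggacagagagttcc
Kmo held these letters on its own strand, starting 135 and 92 bases before the start, and Kyat3 held none on either strand. The other members in the table were Tdo2, Afmid, Kyat1, Haao and Qprt, and promoters of Ido1, Ido2 and Kynu were not used here. Of the 7 promoters, 2 held the letters, Kmo and Haao, the latter 154 and 61 bases before its start. Among all 32851 promoters of this length 4544, or 13.8%, held them. Haao did not pass between genotypes, at -0.22 without Dox and -0.21 with Dox. A match of letters is a description and not a site of binding. The part of these letters in the differences was not tested.

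Tdo2, the target of the hairpin and the tryptophan dioxygenase best known from liver, was read by 3 probe sets that all lay under the floor on every array. The brightest, 1449337_at, measured 3.81, 3.82 and 4.00 in APC-WT without Dox and 3.94, 3.76 and 3.95 with Dox. In APC-KO it measured 3.62, 3.74 and 3.69 without Dox and 3.85, 3.84 and 4.17 with Dox. The APC-WT groups overlapped, while in APC-KO every array with Dox lay above every array without.

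The Dox difference of this probe set was 0.00 ± 0.11 (SE) in APC-WT, with a 95% interval of -0.22 to 0.23, and 0.27 ± 0.11 in APC-KO, with an interval of 0.05 to 0.50. Neither passed (limma, adjusted p = 0.998 and 0.414). The other probe sets of Tdo2, with means of 3.12 and 2.58 over the 12 arrays, had Dox intervals of -0.11 to 0.30 and -0.22 to 0.19 in APC-WT and of -0.20 to 0.21 and -0.26 to 0.14 in APC-KO. Between genotypes the differences of the 3 probe sets ran from -0.20 to 0.05 without Dox and from -0.04 to 0.08 with Dox, with no adjusted p under 0.286. Under the floor these intervals bound the change of the array signal and not that of the transcript.

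**Figure D1:**
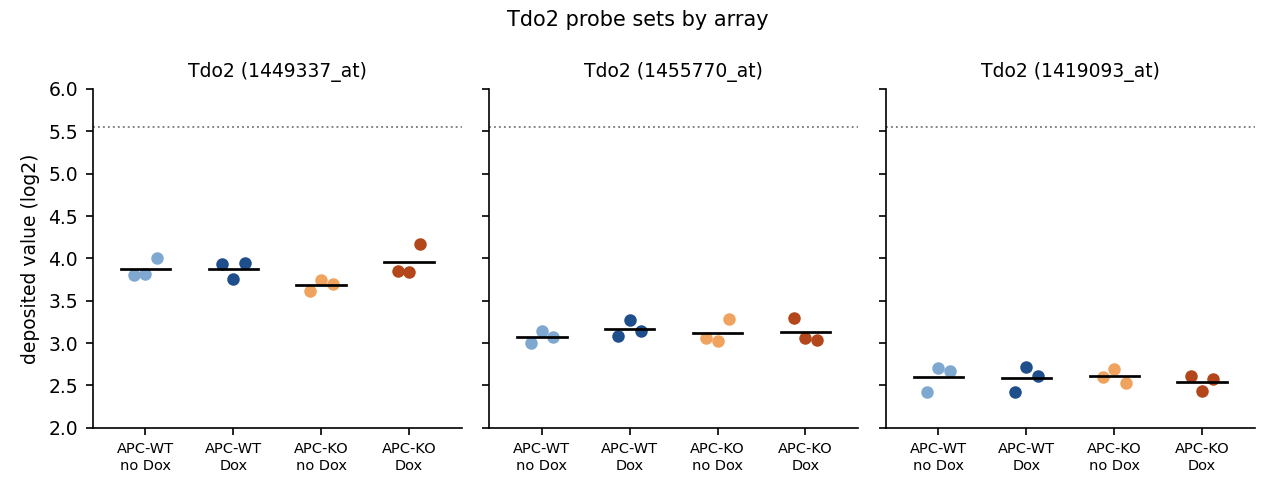
Log2 level of each of the 3 Tdo2 probe sets on the 12 arrays, by group, with the mean of each group as a line. All points lie under the floor of 5.55, and the groups of 1455770_at and 1419093_at overlap with and without Dox.

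Dox changed none of the members past the threshold in either genotype. In APC-WT 0 of the 20 probe sets passed by limma, against 0.0799% of all probe sets tested, and 3 of 20 had an unadjusted p under 0.05, against 9.9% of all. In APC-KO 0 of 20 passed, against 0.318% of all, and again 3 of 20 had an unadjusted p under 0.05, against 9.38%. The median difference of the members was -0.01 in APC-WT and 0.03 in APC-KO, beside 0.01 and 0.00 over all probe sets.

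Between genotypes 3 genes differed in each state of Dox. Without Dox, Kyat3 was higher and Ido1 and Afmid were lower in APC-KO tumours, 3 of 20 probe sets against 12.3% of all probe sets tested (6.23% higher and 6.02% lower). With Dox, Kyat3 and Kmo were higher and Ido1 was lower, again 3 of 20, against 9.51% of all (5.12% higher and 4.39% lower). These shares of 15% are near the background, so no excess of changed members is read from them. Probe sets with a difference below 0 were more frequent than above: 14 of 20 without Dox and 15 of 20 with Dox, with medians of -0.19 and -0.06 beside 0.00 and -0.02 over all probe sets. Some genes count here with several probe sets, and most of the 20 lay under the floor. With each gene read by its brightest probe set, 8 of 10 genes lay below 0 without Dox and 6 of 10 with Dox.

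**Figure D2:**
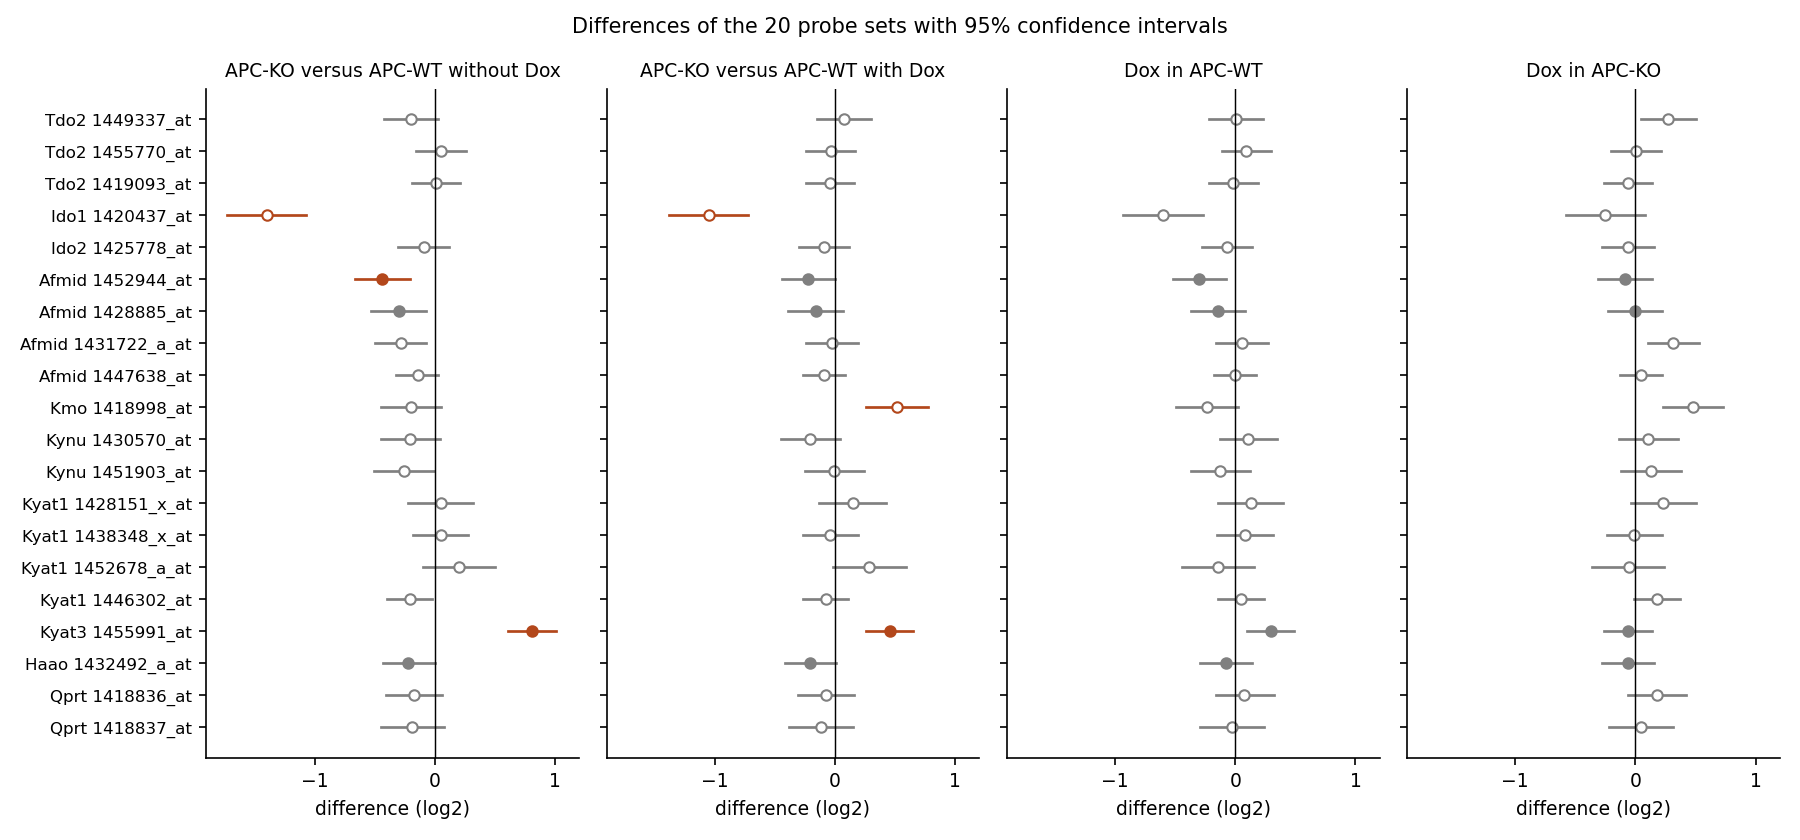
Log2 differences with 95% intervals for the 20 probe sets, for Dox in each genotype and for APC-KO against APC-WT in each state of Dox. Orange marks a difference that passed and filled points mark probe sets with a mean at or above the floor; the passing points are Ido1, Kyat3, Afmid and Kmo, all of them in the comparisons of genotype.

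Ido1, the interferon-inducible dioxygenase, had the largest difference of the members. Its single probe set measured 6.23, 5.69 and 6.13 in APC-WT without Dox and 5.19, 5.28 and 5.79 in APC-WT with Dox. In APC-KO tumours it measured 4.58, 4.55 and 4.73 without Dox and 4.53, 4.29 and 4.29 with Dox. All 6 APC-KO arrays lay under the floor and under every APC-WT array, and 4 of the 6 APC-WT arrays lay above the floor.

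Ido1 was lower in APC-KO by -1.40 ± 0.16 without Dox (limma, adjusted p = 1.7e-05) and by -1.05 ± 0.16 with Dox (adjusted p = 0.000323). Against the floor, the difference without Dox was at least 1.38-fold. With Dox the arrays of APC-WT lay on both sides of the floor and no fold is given. The order of the group means was APC-WT without Dox (6.02), APC-WT with Dox (5.42), APC-KO without Dox (4.62) and APC-KO with Dox (4.37). Neighbours within a genotype did not differ past the threshold: the Dox difference was -0.60 ± 0.16 in APC-WT (adjusted p = 0.173), where the groups overlapped, and -0.25 ± 0.16 in APC-KO (adjusted p = 0.666), where they did not. Both calls were kept under all 19 alternatives that could test the probe set, while a filter at the floor left it untested.

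Most markers of T cells, the main source of interferon gamma together with NK cells, were lower in the same comparisons. For all marker lists here and below, the background without Dox was 6.02% of all probe sets lower in APC-KO and 6.23% higher. With Dox it was 4.39% lower and 5.12% higher. Of 7 T cell markers 6 were analysed here, and all lay at or above the floor. Of these markers 5 of 6 were lower in APC-KO without Dox and 4 of 6 with Dox, with medians of -0.76 and -0.54. The log2 of their summed linear level ran from 9.60 to 10.03 in APC-WT without Dox, from 9.23 to 9.60 in APC-WT with Dox, from 9.12 to 9.13 in APC-KO without Dox and from 8.60 to 9.26 in APC-KO with Dox. Cd8a, the coreceptor of cytotoxic T cells, measured 7.17, 6.82 and 7.06 in APC-WT and 6.25, 6.44 and 6.30 in APC-KO without Dox, a difference of -0.69 ± 0.15 (limma, adjusted p = 0.0045). With Dox it differed by -0.78 ± 0.15 (adjusted p = 0.00221). Cd4 did not pass in either state of Dox. It measured 5.97, 5.97 and 6.07 in APC-WT and 6.03, 6.02 and 6.08 in APC-KO without Dox. Cd3e and Cd3d no longer passed in some alternatives. Without Dox, Cd3e lost its call without replicate 3 of APC-WT. Cd3d lost it with array weights and without replicate 1 or 3 of APC-WT or replicate 2 of APC-KO (adjusted p up to 0.0756). With Dox, Cd3e lost its call in 13 of 19 alternatives, 9 of them the omission of an array. Cd3d lost it in 5 of 19, 4 of them such omissions. The part of T cells in the Ido1 difference was not tested.

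Dendritic cells and macrophages can express Ido1 as well. Of 8 dendritic cell markers 1 was higher and 1 lower in APC-KO without Dox, namely Batf3 (0.37 ± 0.09) and Zbtb46 (-0.51 ± 0.12), and only Batf3 was higher with Dox (0.42 ± 0.09). Their summed level ran from 11.95 to 12.22 in APC-WT and from 12.00 to 12.17 in APC-KO without Dox. Of 9 macrophage markers 8 had a difference above 0 without Dox, 4 of them with no overlap of the genotypes, and 2 passed, Csf1r (0.28 ± 0.06) and Cd14 (0.38 ± 0.09), while 1 was lower with Dox, Lyz2 (-0.37 ± 0.05). Single arrays decided some of these calls without Dox, APC-WT replicate 2 for Batf3 and Cd14, APC-KO replicate 1 for Batf3, and APC-WT replicate 1 and APC-KO replicate 2 for Zbtb46.

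Genes upstream of Ido1, most of them of the interferon-gamma axis and with Bin1 among the rest, were taken as a list of 11. Of these 10 were analysed here. Without Dox 3 of them were lower in APC-KO and 1 was higher, against 6.02% and 6.23% of all probe sets tested. With Dox 3 were lower, namely Ifng, Irf1 and Bin1, against 4.39% of all. Ifng itself measured 5.04, 4.68 and 5.26 in APC-WT and 3.97, 4.10 and 3.96 in APC-KO without Dox, and 4.25, 4.90 and 4.94 in APC-WT and 3.77, 3.61 and 3.70 in APC-KO with Dox. Every APC-KO array was under every APC-WT array, and all 12 lay under the floor. The difference was -0.99 ± 0.16 without Dox and -1.001 ± 0.16 with Dox (limma, adjusted p = 0.000753 and 0.000796).

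Irf1, the transcription factor through which interferon gamma acts on Ido1, was lower by -0.34 ± 0.08 without Dox and by -0.51 ± 0.08 with Dox (limma, adjusted p = 0.0106 and 0.000669). It measured 11.13, 10.92 and 11.13 in APC-WT and 10.68, 10.71 and 10.77 in APC-KO without Dox, again with no overlap. Jak2, a kinase of the interferon gamma receptor, was lower without Dox by -0.31 ± 0.08 (adjusted p = 0.0199). Ifngr2, a chain of the receptor, went the other way and was higher by 0.47 ± 0.06 (adjusted p = 0.000113). Bin1, whose product has been tied to control of Ido1, was lower with Dox by -0.28 ± 0.09 (adjusted p = 0.0492). Its place in the list does not mean that a lower Bin1 goes with a lower Ido1. Jak1 and Irf8 did not pass, with differences of -0.12 ± 0.07 and -0.17 ± 0.12 without Dox. The median of the list was -0.16 without Dox and -0.05 with Dox.

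Some of these calls rested on single arrays. Irf1 without Dox had an adjusted p of 0.0515 when APC-WT no Dox replicate 1 was left out, and Jak2 did not pass without that array or without APC-KO no Dox replicate 2 (adjusted p up to 0.0958). Bin1 lost its call in 11 of 19 alternatives (adjusted p up to 0.192), among them the omission of any array but APC-WT Dox replicate 3 and APC-KO no Dox replicates 1 and 2. The calls of Ifng and Ifngr2, and that of Irf1 with Dox, were kept in all alternatives.

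**Figure D3:**
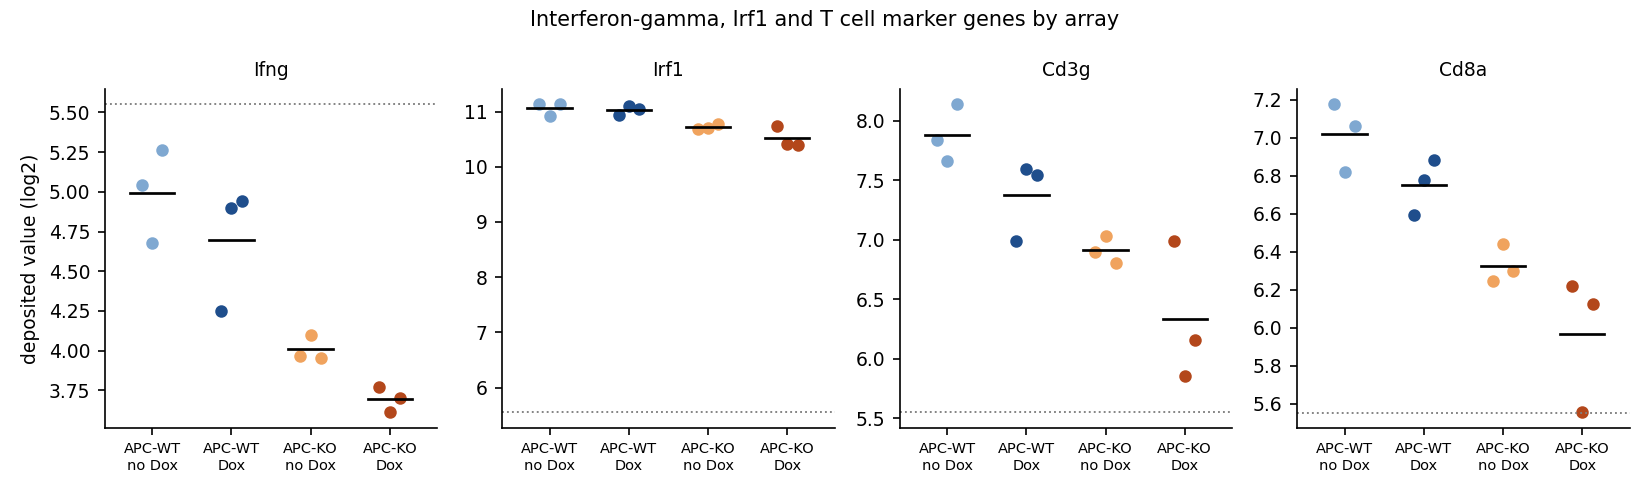
Log2 levels of Ifng, Irf1 and the T cell genes Cd3g and Cd8a on the 12 arrays, by group, with group means as lines and the floor of 5.55 dotted. APC-KO arrays lie under APC-WT arrays for Ifng and Irf1 in both states of Dox; for Cd3g the genotypes overlap with Dox.

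Ido2, the paralogue that neighbours Ido1 in the genome with 0 genes between them, did not pass in any comparison. Its probe set ran from 3.25 to 3.64 over the 12 arrays, under the floor throughout, and the genotype difference was -0.09 ± 0.10 both without and with Dox. The 95% intervals were -0.31 to 0.12 and -0.30 to 0.12.

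Afmid, the formamidase that follows the dioxygenases, was read by 4 probe sets. The brightest, 1452944_at, measured 7.06, 6.82 and 6.63 in APC-WT without Dox and 6.45, 6.60 and 6.57 with Dox, and 6.30, 6.45 and 6.45 in APC-KO without Dox and 6.43, 6.25 and 6.27 with Dox. APC-WT arrays without Dox lay above all others. Without Dox it was lower in APC-KO by -0.44 ± 0.10, or 1.35-fold (limma, adjusted p = 0.0106). All 4 probe sets had a difference below 0 in that comparison, and the other 3, at -0.30, -0.28 and -0.14, did not pass (adjusted p = 0.0866, 0.0878 and 0.329). When APC-WT no Dox replicate 1, the highest array, was left out, the difference was -0.33 and no longer passed (adjusted p = 0.0528).

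With Dox the same probe set of Afmid differed between genotypes by -0.22 ± 0.10 (limma, adjusted p = 0.231). Its Dox difference in APC-WT was -0.30 ± 0.10 with no overlap of the groups (adjusted p = 0.332). The dim probe set 1431722_a_at, under the floor on all arrays, was higher with Dox in each APC-KO array than in any without, by 0.31 ± 0.10 (adjusted p = 0.297), whereas 1452944_at differed there by -0.09. The probe sets of Afmid thus differed in the sign of the Dox difference in APC-KO.

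Kyat3, an aminotransferase that makes kynurenic acid and also acts on other amino acids, had a mean at the 78.3 percentile of all probe sets and was the only member that was higher in APC-KO in both states of Dox with all arrays above the floor. It measured 7.77, 7.48 and 7.73 in APC-WT without Dox and 7.88, 7.92 and 8.07 with Dox. In APC-KO it measured 8.61, 8.38 and 8.42 without Dox and 8.29, 8.49 and 8.44 with Dox. Each APC-KO array lay above each APC-WT array.

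The difference of Kyat3 was 0.81 ± 0.09 without Dox, or 1.75-fold, with a 95% interval of 0.61 to 1.01 (limma, adjusted p = 2.15e-05). With Dox it was 0.45 ± 0.09, or 1.37-fold, with an interval of 0.26 to 0.65 (adjusted p = 0.00442). Both passed under all 20 alternatives. Dox differences within a genotype did not pass: 0.30 ± 0.09 in APC-WT (adjusted p = 0.271), where the groups did not overlap, and -0.06 ± 0.09 in APC-KO (adjusted p = 0.897), where they did. The order of the means was APC-KO without Dox (8.47), APC-KO with Dox (8.41), APC-WT with Dox (7.96) and APC-WT without Dox (7.66). The genotype difference was smaller with Dox by 0.36 ± 0.13, and this interaction did not pass (adjusted p = 0.434).

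Among 10703 other genes with a mean at or above the floor, Hccs, Fndc3b, H2aj, Nolc1 and Ndufaf4 followed Kyat3 most closely over the 12 arrays. The measure was the root mean square difference between values centred on each gene's own mean, which was 0.11 for Hccs, 0.12 for Fndc3b, 0.123 for H2aj, 0.124 for Nolc1 and 0.13 for Ndufaf4, with a median of 0.359 over the candidates. The arrays share 4 groups, so a gene with a like genotype difference is near by this measure. No other member at or above the floor varied enough for this comparison, for which an SD of 0.25 was required.

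Kyat1, the related aminotransferase, was read by 4 probe sets that lay under the floor on all 12 arrays, from 3.06 to 3.43 for 1446302_at and from 4.76 to 5.35 for 1428151_x_at. Their genotype differences ran from -0.21 to 0.20 without Dox and from -0.08 to 0.28 with Dox, with no adjusted p under 0.164. Its probe sets 1428151_x_at and 1438348_x_at carry the array's mark for probes that can also bind other transcripts.

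Kmo, the hydroxylase that sends kynurenine towards quinolinic acid and is known from liver, macrophages and microglia, was read by 1 probe set that lay under the floor on all arrays. It measured 5.10, 4.98 and 4.83 in APC-WT without Dox and 4.70, 4.72 and 4.77 with Dox. In APC-KO it measured 4.85, 4.48 and 4.97 without Dox and 5.33, 5.26 and 5.15 with Dox. The APC-KO arrays with Dox were the highest of all 12, and in APC-WT the arrays with Dox lay under those without.

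With Dox, Kmo was higher in APC-KO than in APC-WT by 0.52 ± 0.12, with a 95% interval of 0.26 to 0.77 (limma, adjusted p = 0.0101), and no fold is given under the floor. Without Dox the difference was -0.20 ± 0.12 (adjusted p = 0.347). The Dox difference of Kmo was 0.48 ± 0.12 in APC-KO and -0.24 ± 0.12 in APC-WT, and neither passed (adjusted p = 0.133 and 0.532). The interaction, the Dox difference in APC-KO minus that in APC-WT, was 0.72 ± 0.17 and did not pass (adjusted p = 0.215). The call with Dox was kept under all 19 alternatives that tested it (adjusted p up to 0.0409), and a filter at the floor left it untested.

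Of the 9 macrophage markers 0 were higher and 1, Lyz2, was lower in APC-KO with Dox, and 3 of 9 differences lay above 0. The log2 of their summed level, in which the bright Lyz2 weighs most, ran from 14.86 to 14.88 in APC-KO and from 14.93 to 15.03 in APC-WT. Of the fibroblast and endothelial markers, 3 of 7 and 2 of 5 were higher in that comparison, with summed levels from 14.82 to 14.87 and from 9.06 to 9.25 in APC-WT and from 14.96 to 15.04 and from 9.44 to 9.57 in APC-KO. Of the 4 neutrophil markers, 3 were higher in APC-KO without Dox and 2 lower with Dox, and their summed level ran from 7.37 to 8.33 in APC-WT without Dox, 8.09 to 9.29 in APC-WT with Dox, 8.94 to 10.84 in APC-KO without Dox and 7.30 to 7.77 in APC-KO with Dox. With Dox, Col3a1 of fibroblasts lost its call without replicate 2 of APC-KO, and S100a8 and S100a9 of neutrophils lost theirs without replicate 3 of APC-WT or replicate 1 or 3 of APC-KO. Emcn of endothelium lost its call in 11 of 19 alternatives, 8 of them the omission of an array (adjusted p up to 0.214). The summed level of the 10 colon epithelial markers, of which 7 lay under the floor, ran from 10.46 to 11.79 in APC-WT and from 9.78 to 10.44 in APC-KO without Dox, and from 9.87 to 10.07 against 8.92 to 9.64 with Dox, with no overlap in either state. Krt8, an epithelial keratin and the brightest in this sum, was lower in APC-KO without Dox by -1.22 ± 0.38 (limma, adjusted p = 0.0455), a call lost in 10 of 19 alternatives, 8 of them the omission of an array (adjusted p up to 0.217), and with Dox it differed by -1.21 ± 0.38 (adjusted p = 0.0574). Cdh1, the adhesion protein E-cadherin, was higher with Dox by 0.63 ± 0.16 (adjusted p = 0.0197), a call lost without replicate 2 of either genotype with Dox (adjusted p = 0.113). The part of these cell types in the differences of Ido1, Afmid, Kmo and Kyat3 was not tested. Of 6 liver markers 4, Alb, Apoa1, Cyp2e1 and Fgb, lay under the floor. Across the interaction as a whole 0 of 45037 probe sets passed by limma, which is 0%, while 3970, or 8.81%, had an unadjusted p under 0.05; of the members 2 of 20 did, Kmo and Kyat3.

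**Figure D4:**
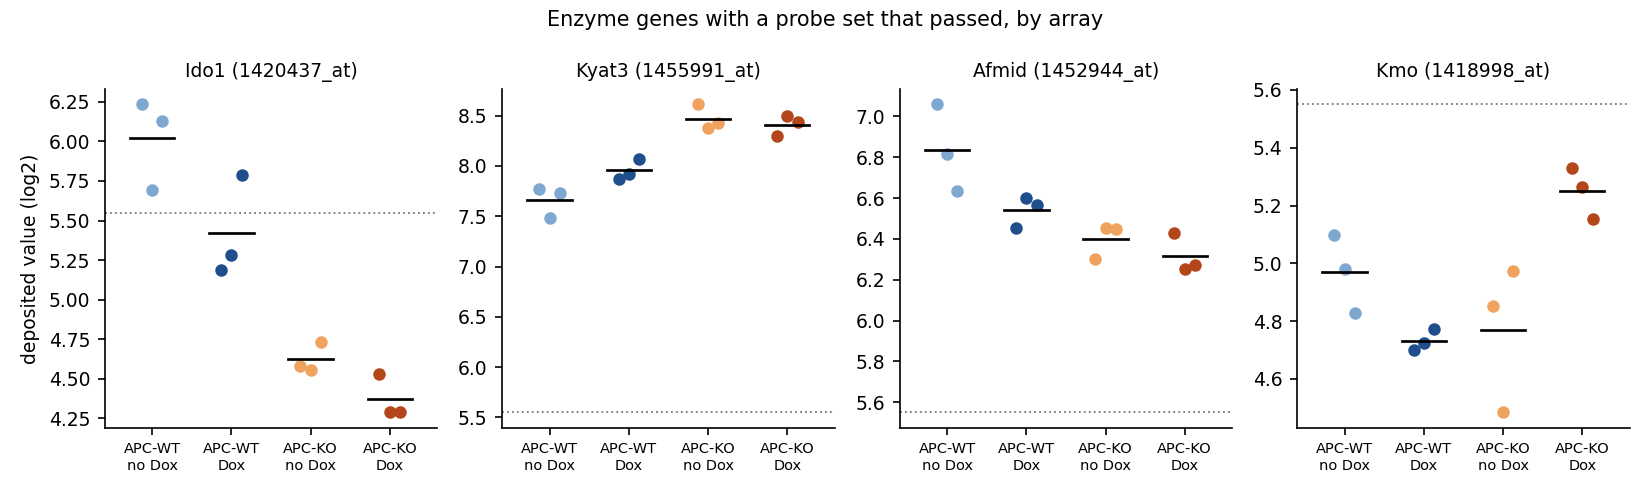
Log2 levels of Ido1, Kyat3, Afmid (1452944_at) and Kmo on the 12 arrays, by group, with group means as lines and the floor of 5.55 dotted. Ido1 separates the genotypes downwards and Kyat3 upwards in both states of Dox, while Kmo is highest in APC-KO with Dox, all under the floor.

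The enzymes downstream of Kmo did not pass in any comparison. Kynu, the kynureninase that cleaves 3-hydroxykynurenine, was read by 2 probe sets that ran from 3.92 to 4.42 and from 3.35 to 3.94 over the 12 arrays, under the floor, with genotype differences of -0.21 and -0.26 without Dox and -0.21 and -0.01 with Dox. Haao, the dioxygenase that forms the precursor of quinolinic acid, measured 5.83, 5.81 and 5.98 in APC-WT and 5.62, 5.74 and 5.59 in APC-KO without Dox. These groups did not overlap, but the difference of -0.22 ± 0.10 did not pass (limma, adjusted p = 0.196), and with Dox it was -0.21 ± 0.10 (adjusted p = 0.257). Qprt, which commits quinolinic acid to NAD, was read by 2 probe sets that ran from 4.91 to 5.46 and from 4.29 to 4.99, under the floor, with differences of -0.18 and -0.19 without Dox and of -0.07 and -0.12 with Dox. Without Dox 7 of the 20 member probe sets had no overlap between genotypes, against 25.2% of all probe sets, and 6 of these were lower in APC-KO, against 12.1%; with Dox 4 of 20 had none, against 29.6%.

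Signs of RNA quality differed between genotypes as well, but not alike in both states of Dox. The Gapdh difference reversed with Dox, while the genotypes were apart in 18S only without Dox and in Actb only with Dox. The log2 signal of the 3' Gapdh control minus the 5' control ran from -0.12 to -0.09 in APC-WT and from -0.18 to -0.15 in APC-KO without Dox, and from -0.19 to -0.16 in APC-WT and from -0.16 to -0.11 in APC-KO with Dox. The signal of the 18S ribosomal control without Dox ran from 8.63 to 8.84 in APC-WT and from 8.93 to 9.26 in APC-KO. With Dox the 18S signal ran from 8.60 to 8.82 in APC-WT and from 8.46 to 8.72 in APC-KO. The 3' minus 5' signal of the Actb control overlapped without Dox, from 0.18 to 0.25 in APC-WT and from 0.17 to 0.22 in APC-KO, and with Dox ran from 0.167 to 0.19 in APC-WT and from 0.193 to 0.275 in APC-KO. Between states of Dox, the 18S signal in APC-KO and the Gapdh difference in APC-WT were lower with Dox, with no overlap. The part of RNA quality in the genotype and Dox differences was not tested.

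Genes around the pathway were taken as lists. Between genotypes 12.3% of all probe sets tested passed without Dox and 9.51% with Dox. No excess is therefore read from 1 passing gene in a list. Of 11 genes of kynurenine transamination and NAD synthesis, only Got2, a mitochondrial aminotransferase, passed, higher in APC-KO with Dox by 0.17 ± 0.05 (limma, adjusted p = 0.0477). That call was lost in 11 of 19 alternatives, among them 7 omissions of an array: replicates 2 and 3 of APC-WT with Dox and of APC-KO without Dox, replicates 1 and 3 of APC-KO with Dox, and replicate 2 of APC-WT without Dox (adjusted p up to 0.179). Nampt, the rate-limiting enzyme of NAD salvage, had a Dox difference in APC-KO of -0.30 ± 0.09 (adjusted p = 0.203). Gcdh, a mitochondrial dehydrogenase of lysine and tryptophan breakdown, had one in APC-WT of 0.24 ± 0.07 (adjusted p = 0.247). The median of this list between genotypes was 0.03 without Dox and 0.11 with Dox.

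Of 10 transporters of tryptophan and kynurenine only Slc16a10, a carrier of aromatic amino acids, passed, and it was higher in APC-KO. It measured 6.35, 6.61 and 6.37 in APC-WT and 6.80, 6.67 and 6.95 in APC-KO without Dox, and 6.42, 6.42 and 6.24 against 6.71, 6.96 and 6.85 with Dox, with no overlap in either state. The difference was 0.36 ± 0.10 without Dox and 0.48 ± 0.10 with Dox (limma, adjusted p = 0.0276 and 0.00594). The call without Dox was lost in 6 of 19 alternatives (adjusted p up to 0.12), 4 of them the omission of replicate 1 or 3 of either genotype without Dox. Slc7a5 and Slc3a2, the chains of the main tryptophan exchanger, did not pass: Slc7a5 had a Dox difference in APC-KO of 0.38 ± 0.14 (adjusted p = 0.362) and Slc3a2 one in APC-WT of 0.21 ± 0.09 (adjusted p = 0.425).

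Among 11 genes of other uses of tryptophan, 1 passed. Maob, a monoamine oxidase, was lower in APC-KO without Dox by -0.72 ± 0.15 (limma, adjusted p = 0.00441), with values of 5.19, 4.96 and 4.74 in APC-WT and 4.08, 4.35 and 4.30 in APC-KO, all under the floor. Inmt, a methyltransferase of tryptamine, had a difference of -0.66 ± 0.22 without Dox (adjusted p = 0.0585), and Maoa, the other monoamine oxidase, one of 0.27 ± 0.10 with Dox (adjusted p = 0.0935).

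Of 7 genes tied to the sensing of kynurenine or kynurenic acid, receptors and target genes among them, Ahr was higher in APC-KO in both states of Dox. Tiparp was lower with Dox in APC-KO. Ahr, the aryl hydrocarbon receptor, measured 8.61, 8.39 and 8.40 in APC-WT and 9.13, 8.78 and 8.99 in APC-KO without Dox, and 8.26, 8.54 and 8.29 against 8.81, 8.61 and 8.90 with Dox. Its difference was 0.50 ± 0.11 without Dox and 0.41 ± 0.11 with Dox (limma, adjusted p = 0.00439 and 0.019). With Dox the call was lost when replicate 1 or 3 of either genotype with Dox was left out (adjusted p up to 0.0984).

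Tiparp, a target of the receptor that feeds back on it, measured 10.14, 10.37 and 10.10 in APC-KO without Dox and 9.73, 9.66 and 9.64 with Dox. The groups did not overlap, and the difference of -0.53 ± 0.08 passed under all alternatives (limma, adjusted p = 0.00443). It was the only gene of the 5 lists around the pathway with a Dox difference that passed, against 0.318% of all probe sets in APC-KO. Marker genes passed in that comparison too. Of 4 neutrophil markers 2, S100a8 and S100a9, were lower with Dox in APC-KO, as was 1 of 9 macrophage markers, Cd14. Of the macrophage markers 8 had a difference below 0. Cd14 lost its call in 5 of 19 alternatives and S100a9 in 1, while S100a8 kept it, at -4.70 to -3.70. In APC-WT Tiparp measured 9.89, 10.07 and 9.97 without Dox and 9.69, 9.90 and 9.81 with Dox. The APC-WT difference of -0.175 ± 0.075 had the same sign and did not pass (limma, adjusted p = 0.453). The interaction of -0.352 ± 0.107 did not pass either (adjusted p = 0.328). Ahrr, the repressor of the receptor, and Gpr35, a receptor of kynurenic acid, did not pass: Ahrr differed between genotypes without Dox by -0.30 ± 0.10 (adjusted p = 0.0543) and Gpr35 had a Dox difference in APC-KO of -0.39 ± 0.14 (adjusted p = 0.357). Cyp1a1 and Cyp1b1, listed beside Tiparp, had Dox differences in APC-KO of 0.104 ± 0.095 and -0.001 ± 0.152, and Ahrr had one of 0.184 ± 0.096. None of them passed, and their means lay under the floor. Whether the activity of the receptor changed with Dox was not tested.

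**Figure D5:**
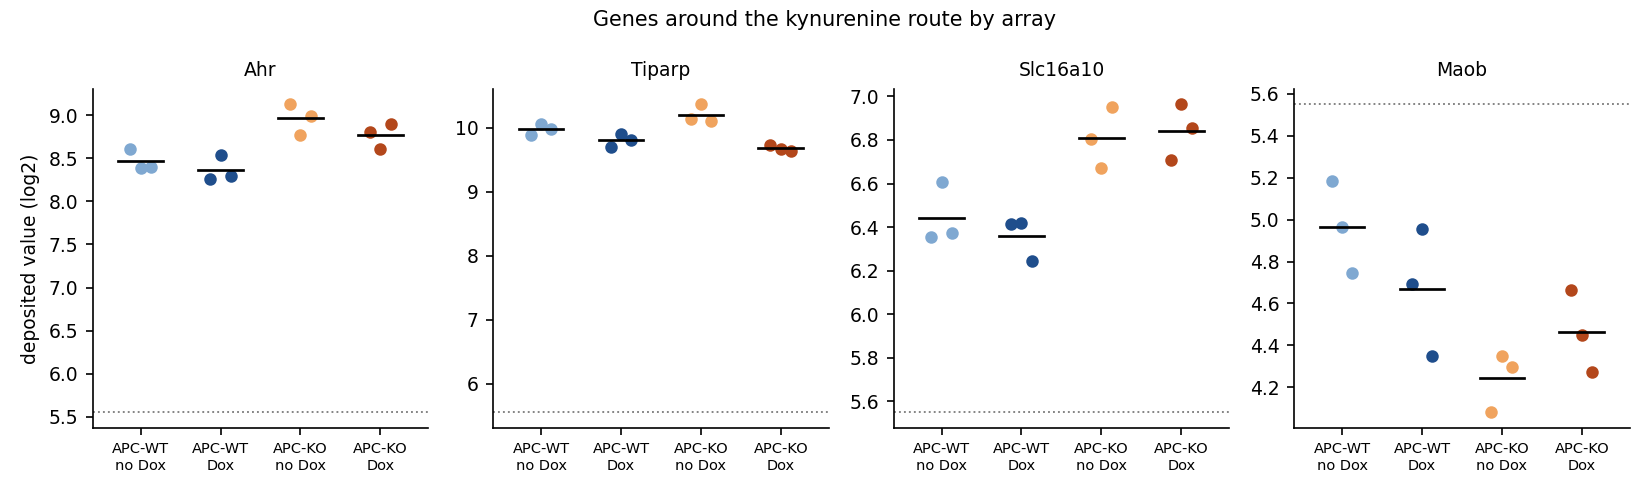
Log2 levels of Ahr, Tiparp, Slc16a10 and Maob on the 12 arrays, by group, with group means as lines and the floor of 5.55 dotted. Ahr and Slc16a10 are higher in APC-KO in both states of Dox, and Tiparp is lower with Dox in APC-KO.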

How the data were processed

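Total RNA of tumours was hybridised to Affymetrix arrays, per the labels. The deposited values are log2 expression values that the authors made with MAS5, per the submitters' processing notes (version not given); for scaling and logging, details were not given in the sources used here, and the log2 scale was read from the values, 1.86 to 14.16. Of 45101 probe sets 64 controls were left out. The platform annotation gave 1 symbol to 34945 of the rest, several to 932 and none to 9160. No column was left without a sample (0 unused), and no 2 arrays held identical values.

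A model of 4 group means was fitted with limma 3.58.1 in R 4.3.3 (lmFit, eBayes with trend) to all probe sets, with 5 contrasts, 2-sided tests and Benjamini-Hochberg adjustment over 45037. An exact test of 3 against 3 arrays cannot go below p = 0.1 and was not used. The script was checked on simulated data. A gene outside the members was read by its probe set of highest mean. A fold is given as a bound where 1 group lay under the floor of 5.55 on all arrays, and not at all where both did. Named were all members, listed genes that passed, up to 2 more per pathway list with the smallest p, and the 5 nearest genes of a member at or above the floor with an SD of at least 0.25. Members and lists were chosen with earlier results of these data known. Same-numbered arrays of different groups did not deviate together (correlations of 18 pairs from -0.121 to 0.132, 1 over 0.1), so the numbers were not taken as pairs. Alternatives were a replicate block, quantile normalization, median centring, eBayes without trend, array weights, a level filter, a gene's mean over probe sets, only the groups compared, and the omission of each of the 12 arrays. Plots used matplotlib 3.10.9 in Python 3.11.15.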

Additional observations from a re-analysis of the deposited data

Results flagged for a closer look

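For Kmo, every APC-KO array with Dox lay above every APC-KO array without, while every APC-WT array with Dox lay below every APC-WT array without. The Dox difference in APC-KO minus that in APC-WT was 0.716 ± 0.17 (SE, limma), with an unadjusted p of 0.000606 and an adjusted p of 0.215 over all probe sets. All 12 arrays of this probe set lay under the floor.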

How the results depend on the processing

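Of the 6 member differences that passed, 5 did so in every alternative that tested them and Afmid without Dox did not when APC-WT no Dox replicate 1 was left out; in 117 recomputed values none changed sign. Among 1733 recomputed values that had not passed, 5 passed: with array weights, Kyat3 with Dox in APC-WT (0.41), Kynu 1451903_at without Dox (-0.39) and the interaction of Kmo (0.70), and Afmid 1431722_a_at without Dox when replicate 2 of APC-WT (-0.37) or replicate 3 of APC-KO (-0.36) without Dox was left out. Signs changed in 92, of which 91 belonged to differences within 1 SE; the other was Kynu 1451903_at with Dox in APC-WT, -0.125 with all arrays and from -0.223 to 0.001 when single arrays were left out, reversed without APC-WT no Dox replicate 2. The level filter left Ido1 and Kmo untested, so 1 of 3 member calls with Dox was kept; array weights gave 1 member call for Dox in APC-WT and 1 for the interaction.

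Over all probe sets, Dox in APC-WT gave 36 calls, 8 with the level filter, 14 with median centring, 0 without trend, 2101 with array weights and 0 to 600 without single arrays. Dox in APC-KO gave 143, 51 without trend and 52 to 204 without single arrays. Genotype gave 5518 without Dox (3958 to 5722 without single arrays), and 4284 with Dox, 6617 with array weights and 2614 to 4708 without single arrays. The interaction gave 0, 306 with array weights and 0 to 196 without single arrays. With the replicate number as a block the counts were 28, 128, 5368, 4148 and 3, and no count of member calls changed; the block rests on numbers that did not pair the samples. The backgrounds for Dox therefore depend on the setting. The cause of these shifts was not tested. Signal under the floor limits 16 of the 20 probe sets, Tdo2 among them.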
